A study of Mus musculus with 4 samples.

Results

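The genes described here encode the nuclear-encoded subunits of the 5 complexes of oxidative phosphorylation. They were chosen by name: every probe set whose single gene symbol in the array annotation begins with Nduf and one of the letters a, b, c, s or v before a number, is Sdha, Sdhb, Sdhc or Sdhd, or begins with Uqcr, Cox4 to Cox8 or Atp5. This gave 81 of the 18828 genes that have a probe set with a single symbol, and 164 of the 45101 probe sets on the array. Complex I had 35 of these genes, complex II 4, complex III 8, complex IV 17 and complex V 17. The tissue was testis of 129 strain mice at 2 days post partum, kept for 24 h on agar blocks in medium with serum. One group received WIN 18,446 at 1 µM and the other its vehicle, dimethyl sulfoxide, with 2 Affymetrix arrays per group. WIN 18,446 inhibits the retinaldehyde dehydrogenases, which make retinoic acid. The labels do not say whether the samples of a group came from separate animals or cultures, or whether testes were pooled. Every p-value here therefore rests on the spread between these 4 samples alone, which may be technical. Each p-value also draws on the spread of other probe sets of similar level, not on a probe set's own spread alone.

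Complexes I to IV form the respiratory chain of the inner mitochondrial membrane. Electrons from NADH enter at complex I and those from succinate at complex II, pass through complex III and cytochrome c to complex IV, and reduce oxygen there, while complexes I, III and IV pump protons. Complex V, the ATP synthase, uses the proton gradient to make ATP. Most subunits are made in every cell type, but several of complex IV have isoforms made mainly in muscle, lung or testis, and male germ cells are known for such isoforms.

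The values are log2 levels, normalized between arrays by the authors. Differences are WIN 18,446 minus vehicle, so a positive value means a higher level with the inhibitor. Only probe sets whose 4-array mean was 5 or more were tested, and one is called where limma's adjusted p is under 0.05. The highest bacterial control probe set, which has no target in mouse RNA, read 2.22 and marks background. Array medians were 3.83 and 3.72 with WIN 18,446 and 3.72 and 3.76 with vehicle. WIN 18,446 array 1 stood apart in control probe sets: ribosomal 18S RNA, probed near its 5' end, gave 6.55 on that array and between 8.12 and 8.67 elsewhere. Germ cells and Sertoli cells, the cells of the neonatal seminiferous cord, were both represented. Of 5 germ cell markers 4 were tested, among them Ddx4 and Dazl, and Dppa3 was at background. All 5 Sertoli cell markers were tested, and Sox9, Wt1, Cldn11 and Dhh were called lower with WIN 18,446, while Amh was higher and not called. Of the Leydig, peritubular and endothelial markers 4, 3 and 3 were tested. All of these differences were below zero, with medians of -0.31, -0.26 and -0.80, beside 6013 of all 10970 tested genes below zero. Only the peritubular gene Des was called among them (lower). Of all 10970 tested genes 6.4% were called in either direction. Of 5 macrophage symbols listed 4 were on the array, and 0 of these were bright enough to be tested.

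Transcripts of the oxidative phosphorylation subunits differed little between the groups. Of the 164 probe sets 139 were tested, representing 75 of the 81 genes, and limma called 0 of the 139 at an adjusted p under 0.05, where 5.18% of all 20895 tested probe sets were called (2.27% higher and 2.91% lower). Probe sets that list several symbols are outside these counts and are given at the end. At an unadjusted p under 0.05 there were 16 (11.5%), 3 higher and 13 lower, beside 22% of all tested probe sets (9.92% higher and 12.1% lower). A miss of the threshold does not by itself show that levels were alike, so the interval of each difference was read as well. In 120 of the 139 probe sets (86.3%) the 95% interval lay within 0.5 log2 units of zero on both sides, beside 40.9% of all tested probe sets, and in 134 it lay within 1 unit, beside 79.6%. Only 5 probe sets (3.6%) differed by more than 0.5 in either direction, beside 17.3% of all tested. The shares over all tested probe sets are not matched for brightness. With each gene represented by its tested probe set of highest mean, the median difference was -0.0285 over the 75 genes and -0.025 over all 10970 genes tested. Leaving out Cox6b2, Cox7b2 and Ndufa4l2, which were singled out after their values were seen, the other 72 genes lay between -0.45 and 0.30, that is between 0.731-fold and 1.23-fold. In bulk tissue fewer cells of a type and less RNA per cell cannot be told apart.

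**Figure D1:**
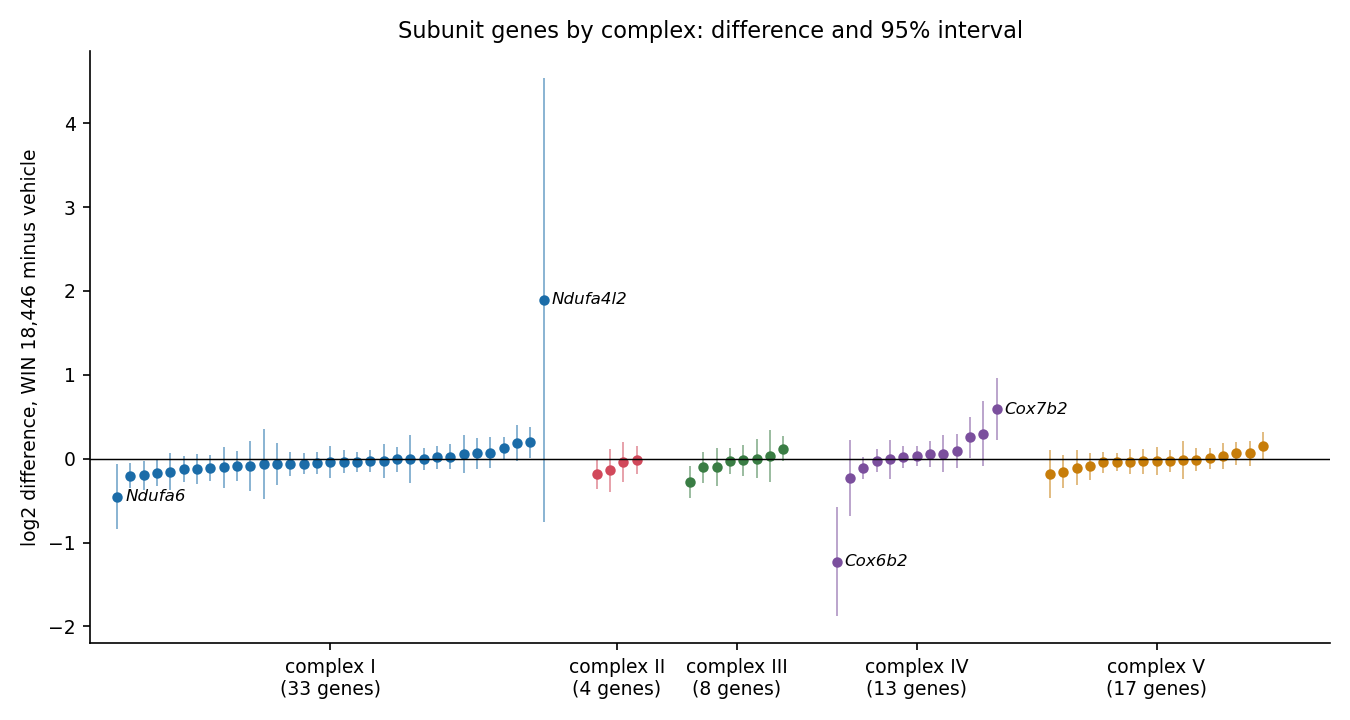
Log2 difference (WIN 18,446 minus vehicle, vertical axis) of the 75 tested genes, ordered within each complex; points are differences and lines are 95% intervals from limma, 2 arrays per group. Most genes sit close to zero, and Ndufa4l2 (1.90), Cox7b2 (0.59) and Cox6b2 (-1.23) lie farthest from it.

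Most of these genes read high on the array, 57 of the 75 with a mean level of at least 13, and differences on an array tend to be smaller for bright probe sets. In the level ranges that hold more than 20 members, the members still differed less than all tested probe sets in the same range, members included. The median size of the difference was 0.0653 for 25 member probe sets against 0.122 for all tested ones between 12 and 13, 0.0627 for 49 members against 0.0983 between 13 and 14, and 0.0433 for 43 members against 0.0594 from 14 to 16. Among the dimmer members the picture was mixed: 0.0876 for 7 members against 0.143 for all tested between 11 and 12, but 0.226 for 7 members against 0.191 between 9 and 11, and 0.434 for 8 members against 0.302 from 5 to 9. These are descriptions of medians and were not tested. The share of all tested probe sets called also varied with level, at 5.6% between 13 and 14 and 2.42% from 14 to 16. Interval shares were not matched for level.

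**Figure D2:**
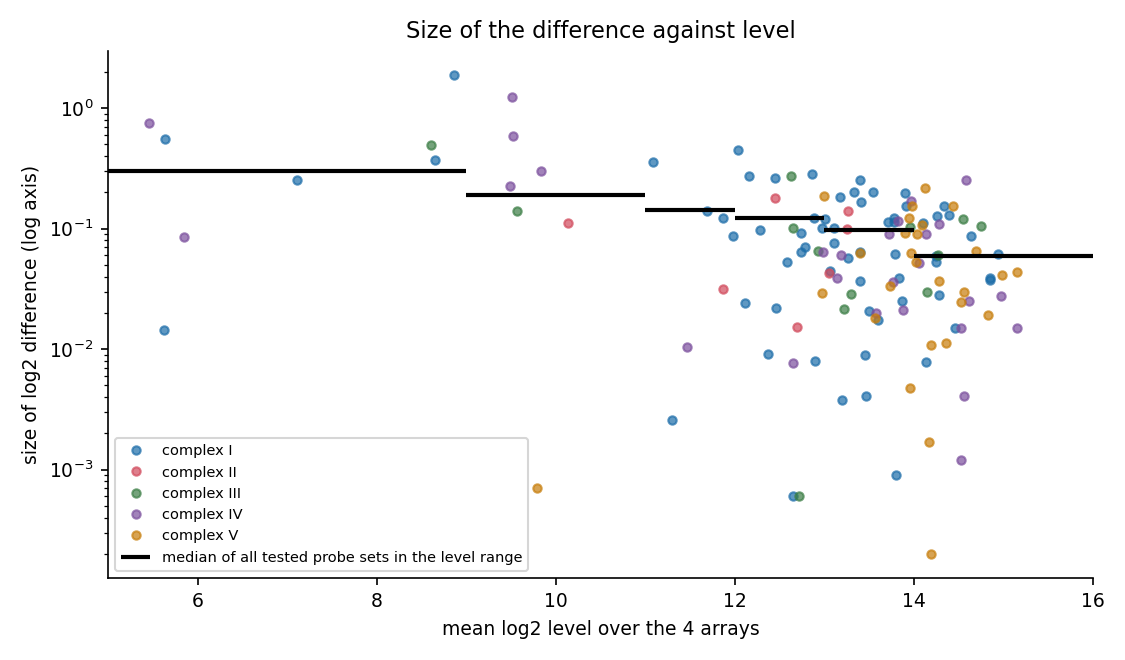
Size of the log2 difference (log axis) against the mean log2 level over the 4 arrays for the 139 tested member probe sets, coloured by complex; black bars are the median size over all tested probe sets in the same range of levels. Above a level of 12 most points lie below the black bars.

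The small shift below zero over the members, close to that over all tested genes, was seen mainly on 1 array, except in complex II. WIN 18,446 array 1 was the lowest of the 4 in 89 of the 139 member probe sets (64%), beside 33.7% of all tested probe sets, while WIN 18,446 array 2 was the lowest in 16 (11.5%, beside 22.8%). The median deviation from the 4-array mean over the members was -0.0644 and 0.0308 on the WIN 18,446 arrays and 0.0307 and 0.004 on the vehicle arrays. Over all tested probe sets it was -0.0227 and 0.009 with WIN 18,446 and 0.0155 and 0.0078 with vehicle. Without WIN 18,446 array 1 the median difference of the 75 genes was 0.0082 and 0 member probe sets were called (beside 3.18% of all tested), with 20 (14.4%) at an unadjusted p under 0.05, beside 22.5% of all. Without WIN 18,446 array 2 the median was -0.0655 and 8 member probe sets were called lower (5.76%, beside 4.39% of all tested), for Cox6b2, Ndufa6, Ndufa7, Ndufb7, Ndufb10, Ndufb11, Atp5h and Cox6a1. For Cox6a1, Ndufa7, Ndufb7, Ndufb11 and Atp5h the probe set concerned was not the brightest of its gene. The brightest of Cox6a1 went the other way in that fit, by 0.13. The part of the control readings of WIN 18,446 array 1 in the shift was not tested. The groups did not overlap in 15 member probe sets that were higher (10.8%, beside 23.8% of all tested) and in 37 that were lower (26.6%, beside 29.3%).

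**Figure D3:**
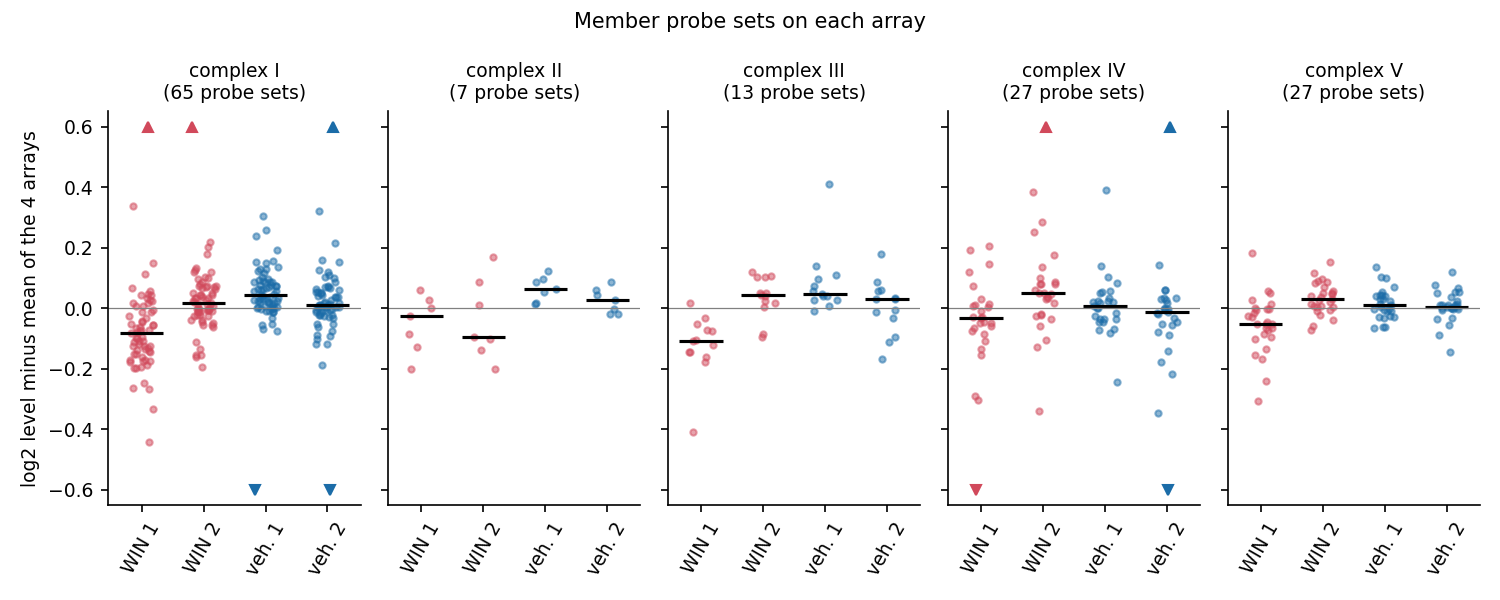
Log2 level on each array minus the mean over the 4 arrays, for the 139 tested member probe sets by complex (WIN, WIN 18,446; veh., vehicle); black bars are medians, and triangles mark the 9 points beyond 0.6. WIN 18,446 array 1 has the lowest median in complexes I, III, IV and V, and WIN 18,446 array 2 has it in complex II.

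Complex I, the NADH dehydrogenase, was the largest group, with 33 of 35 genes tested. Median levels were 13.54 and 13.49 on the WIN 18,446 arrays and 13.60 and 13.59 on the vehicle arrays, and the median difference was -0.0446. Its 6 catalytic core subunits on the array, which belong to the arm that oxidises NADH and passes electrons on to ubiquinone (Ndufv1, Ndufv2, Ndufs1, Ndufs3, Ndufs7 and Ndufs8), lay between -0.059 and 0.0525, with all intervals between -0.23 and 0.28. Among 25 tested accessory subunits, 18 differences were below zero and 7 above, beside 6013 below and 4957 above among all 10970 tested genes. Ndufa6, an accessory subunit of the LYR family that binds the acyl carrier protein, had levels of 11.59 and 12.03 with WIN 18,446 and 12.28 and 12.25 with vehicle. Both treated arrays were below both vehicle arrays, array 1 by more, and the difference of -0.45 (SE 0.15, 95% interval -0.84 to -0.06) was not called (limma adjusted p = 0.178). Ndufa2, a small accessory subunit, stood at 13.41 and 13.49 with WIN 18,446, against 13.65 and 13.65 with vehicle (difference -0.20, limma adjusted p = 0.139). For Ndufa7 all 5 tested probe sets were below zero, from -0.36 to -0.10, with adjusted p-values in limma from 0.133 to 0.568. Ndufs7, the subunit of the terminal iron-sulfur cluster, differed by -0.28 in its dimmer probe set (adjusted p = 0.108 in limma) and by -0.059 in its brighter one. The highest differences after Ndufa4l2 were those of the accessory subunits Ndufa12, Ndufb6 and Ndufc2, at 0.20, 0.18 and 0.13 (adjusted p = 0.205, 0.291 and 0.232 in limma). Each also had a dimmer tested probe set below zero, at -0.0368 for Ndufa12, -0.12 for Ndufb6 and -0.0762 for Ndufc2. The brightest probe set of Ndufc2 read 14.42 and 14.50 with WIN 18,446, above both vehicle arrays at 14.34 and 14.32. Ndufa13, Ndufb11 and Ndufc1, accessory subunits with bright probe sets, differed by 0.0619, -0.039 and -0.0372. The probe sets of Ndufb1 (means 2.79 with WIN 18,446 and 2.81 with vehicle) and Ndufb4 (2.03 with WIN 18,446 and 2.04 with vehicle) were too dim to be tested, and that of Ndufb4 was at background on all arrays.

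Ndufa4 is named for complex I but was later found with complex IV, and its relative Ndufa4l2 is a gene induced under low oxygen. Ndufa4 read 12.81 and 13.05 with WIN 18,446 and 13.04 and 13.01 with vehicle, which overlap. Ndufa4l2 read 9.62 and 10.00 with WIN 18,446 and 6.26 and 9.56 with vehicle. Vehicle array 1 was far below the other 3, which lay close together. The difference of 1.90 had an interval from -0.75 to 4.54 (limma adjusted p = 0.37), and it was 0.25 when vehicle array 1 was left out and 3.55 when vehicle array 2 was. Cox4i2, the lung isoform of complex IV subunit 4 and also oxygen-responsive, was below the level filter but had the same order, 4.74 and 4.83 with WIN 18,446 and 3.17 and 4.50 with vehicle. The general isoform Cox4i1 read 14.03 and 14.14 with WIN 18,446 and 14.01 and 14.05 with vehicle.

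Complex II, succinate dehydrogenase, is also an enzyme of the tricarboxylic acid cycle and has 4 subunits. All 4 differences were below zero, with a median of -0.0914, and 0 were called. Sdhc, a membrane anchor, read 12.36 and 12.35 with WIN 18,446 and 12.57 and 12.51 with vehicle, so the groups did not overlap (difference -0.18, limma adjusted p = 0.225). Sdha, the flavoprotein, read 13.33 and 13.07 with WIN 18,446 and 13.37 and 13.32 with vehicle. Sdhb, the iron-sulfur subunit, differed by -0.043 and Sdhd, the other anchor, by -0.0153. Sdhb changed sign without WIN 18,446 array 1 (0.0647).

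In complex III, the cytochrome c reductase, all 8 genes were tested, with a median difference of -0.0251. Uqcrc1, the first core protein, read 12.45 and 12.54 with WIN 18,446 and 12.73 and 12.81 with vehicle. The groups were apart by more than the spread within either, and the difference of -0.27 (SE 0.07, 95% interval -0.46 to -0.08) was not called (limma adjusted p = 0.114). Uqcrc2, the second core protein, and Uqcrfs1, the Rieske iron-sulfur protein, differed by 0.0299 and -0.0217. The 5 small subunits lay between -0.11 for Uqcrh and 0.12 for Uqcrb, whose dimmer probe set was at -0.10.

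In complex IV, cytochrome c oxidase, 13 of 17 genes were tested. Its 9 ubiquitous subunits lay between -0.11 and 0.30. Cox7a2 read 15.11 and 15.21 with WIN 18,446 and 15.15 and 15.14 with vehicle, and Cox5b, Cox6b1 and Cox8a differed by 0.0274, -0.0253 and -0.0077. Cox7a2l, which joins complexes III and IV, differed by 0.0602. Cox6a1 was 0.25 in its brighter probe set (interval 0.01 to 0.49) and -0.12 in its dimmer one, and Cox7c was 0.30 in its brighter probe set and 0.75 in its dimmer one (adjusted p in limma 0.208 for the brighter Cox6a1 probe set and 0.339 for the brighter Cox7c one). Cox5a, a subunit on the matrix side, read 14.19 and 14.26 with WIN 18,446 and 14.33 and 14.34 with vehicle, so the groups did not overlap (difference -0.11, limma adjusted p = 0.296). Its other 2 tested probe sets went the other way, by 0.0362 and 0.0903. Cox6c differed by 0.0897 in its brighter and -0.17 in its dimmer probe set. The median difference of complex IV was 0.0274 and was -0.0035 without WIN 18,446 array 2.

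Cox6b2, the testis isoform of subunit 6b, had the most negative difference among the members. It read 8.63 and 9.18 with WIN 18,446 and 9.91 and 10.36 with vehicle. Both treated arrays were below both vehicle arrays, and the gap was wider than the spread in either group. The means were 8.90 ± 0.39 with WIN 18,446 and 10.13 ± 0.32 with vehicle (SD, n = 2 each), a 2.34-fold lower level. The log2 difference of -1.23 (SE 0.26, 95% interval -1.88 to -0.58) was not called in limma (adjusted p = 0.0649), and its adjusted p ranged from 0.0148 to 0.353 over the alternatives. The ubiquitous Cox6b1 read 14.56 and 14.65 with WIN 18,446 and 14.62 and 14.64 with vehicle. Cox7b2, a paralogue of Cox7b, went the other way, at 9.73 and 9.91 with WIN 18,446 and 9.28 and 9.18 with vehicle. Again the groups did not overlap, and the difference of 0.59 (SE 0.15, 95% interval 0.22 to 0.96) was not called (limma adjusted p = 0.0923, from 0.0691 to 0.393 over the alternatives). The mean level of the 4 tested germ cell markers was 12.46 and 12.51 with WIN 18,446 and 12.56 and 12.44 with vehicle. Of these markers Sall4 was called lower (-0.60, limma adjusted p = 0.0157), while Dazl differed by 0.29, Ddx4 by 0.24 and Mael by 0.0228. The part of germ cell number in the Cox6b2 and Cox7b2 values was not tested.

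**Figure D4:**
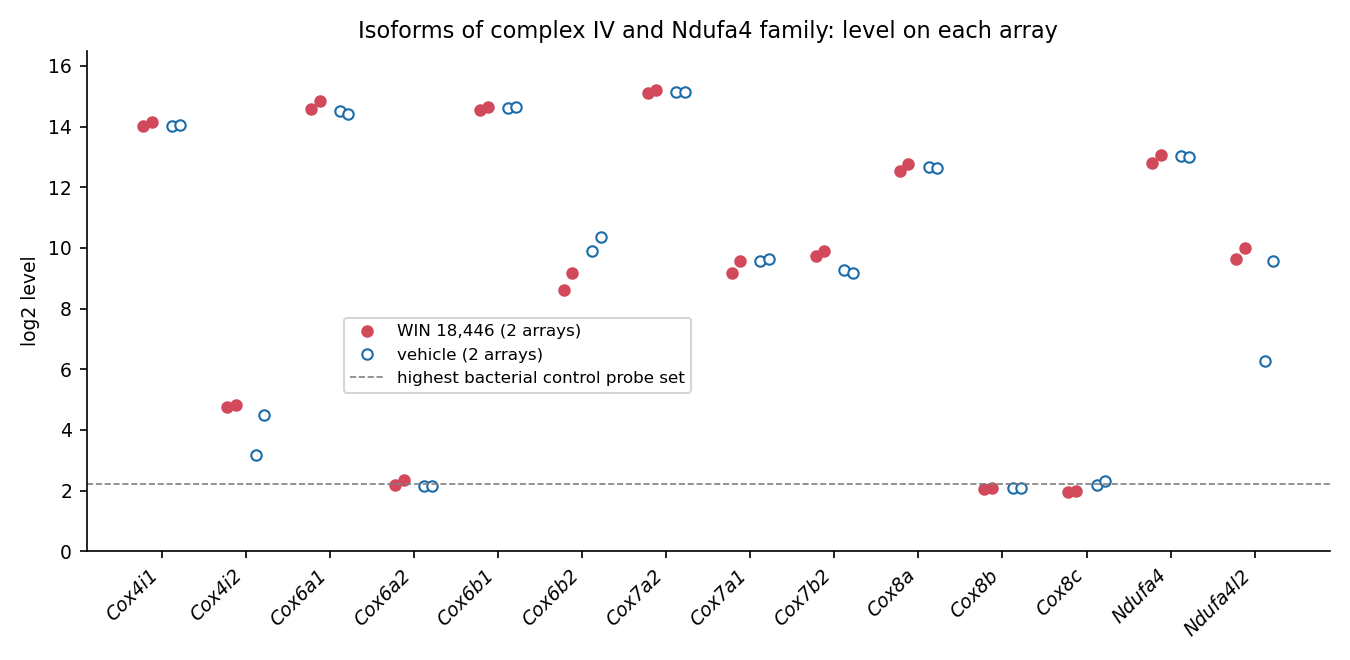
Log2 level on each array for isoforms of complex IV subunits and the Ndufa4 pair (filled points, WIN 18,446; open points, vehicle); the dashed line is the highest bacterial control probe set (2.22). The groups separate widest for Cox6b2 and next for Cox7b2, vehicle array 1 is low for Ndufa4l2 and Cox4i2, and Cox8b lies at background on all 4 arrays.

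Of the 3 complex IV isoforms of heart and skeletal muscle, Cox8b and Cox6a2 read at or near background. Cox8b read between 2.07 and 2.08 on all 4 arrays, below the highest bacterial control, and Cox6a2 passed it on WIN 18,446 array 2 alone (2.35). Cox8c, an isoform of subunit 8 known from testis, passed it on vehicle array 2 alone (2.33). Cox7a1 was brighter, at 9.19 and 9.57 with WIN 18,446 and 9.57 and 9.63 with vehicle (difference -0.23, 95% interval -0.68 to 0.23). Of 6 striated muscle markers 3 were at background on all arrays and 1, Mylpf, was bright enough to be tested. Cox8b and Cox7a1 are also genes of brown fat, and its defining gene Ucp1 was at background on all arrays (2.15 and 2.16 with WIN 18,446, 2.17 and 2.16 with vehicle). Of 6 adipocyte markers 3 were tested, with mean levels of 6.06 and 6.83 with WIN 18,446 and 8.17 and 8.94 with vehicle. They did not go one way: Fabp4, a fatty acid binding protein, read 10.11 and 10.42 with WIN 18,446 and 6.13 and 8.87 with vehicle (difference 2.77, limma adjusted p = 0.153), while Elovl3, a fatty acid elongase, differed by -0.90. Cidea, a lipid droplet protein, was the one called: it fell to 2.64 and 4.75 with WIN 18,446, against 11.94 and 11.86 with vehicle (difference -8.20, limma adjusted p = 0.0118). The part of fat or muscle cells in the Cox7a1 values was not tested.

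Promoter sequence is shown for the testis isoform Cox6b2 beside its ubiquitous counterpart Cox6b1, for Cox7b2, and for Cox6a1, Atp5h and Sdhd, the members that hold motifs of both classic regulators of respiratory chain genes. Of the 81 genes 66 were found in RefSeq's promoter table (GRCm38.p6), with 71 promoters, and the 250 bases before the annotated start were read. The motif of nuclear respiratory factor 1 (a GCGC on either side of an A and any base) and that of ETS factors such as GABP (CCGGAAG) were searched on both strands, and are in capitals where found. The sequences run 5′ to 3′ along the gene's strand.
Cox6b2: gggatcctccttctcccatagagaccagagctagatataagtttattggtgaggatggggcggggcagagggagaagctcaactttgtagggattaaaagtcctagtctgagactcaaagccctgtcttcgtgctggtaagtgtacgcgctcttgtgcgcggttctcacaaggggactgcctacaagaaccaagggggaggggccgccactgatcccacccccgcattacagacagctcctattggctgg
Cox6b1: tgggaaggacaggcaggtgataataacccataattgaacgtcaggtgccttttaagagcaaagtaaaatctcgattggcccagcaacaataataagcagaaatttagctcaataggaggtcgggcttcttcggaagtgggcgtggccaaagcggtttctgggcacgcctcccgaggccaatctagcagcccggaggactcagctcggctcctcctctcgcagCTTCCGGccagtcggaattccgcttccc
Cox7b2: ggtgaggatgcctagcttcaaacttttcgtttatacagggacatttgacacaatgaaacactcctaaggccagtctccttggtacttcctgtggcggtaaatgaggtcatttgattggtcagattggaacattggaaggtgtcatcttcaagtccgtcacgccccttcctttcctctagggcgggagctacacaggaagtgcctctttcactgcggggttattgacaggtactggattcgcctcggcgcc
Cox6a1: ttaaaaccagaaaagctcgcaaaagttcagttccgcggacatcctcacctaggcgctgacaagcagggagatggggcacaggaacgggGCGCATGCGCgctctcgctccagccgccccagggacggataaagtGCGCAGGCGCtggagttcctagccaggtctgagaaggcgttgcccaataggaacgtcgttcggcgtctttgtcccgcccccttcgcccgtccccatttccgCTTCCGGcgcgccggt
Atp5h: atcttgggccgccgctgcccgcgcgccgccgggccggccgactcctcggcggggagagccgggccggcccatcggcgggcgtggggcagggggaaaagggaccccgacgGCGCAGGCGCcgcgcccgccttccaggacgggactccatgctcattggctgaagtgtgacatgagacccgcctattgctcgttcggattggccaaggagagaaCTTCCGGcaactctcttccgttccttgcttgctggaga
Sdhd: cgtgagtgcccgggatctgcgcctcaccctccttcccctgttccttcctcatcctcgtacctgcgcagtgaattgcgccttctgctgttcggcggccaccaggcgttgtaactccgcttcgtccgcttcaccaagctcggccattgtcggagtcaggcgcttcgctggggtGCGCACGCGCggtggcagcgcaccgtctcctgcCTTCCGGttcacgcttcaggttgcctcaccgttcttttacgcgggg
The Cox6b2 sequence is chr7:4753095-4753344, that of Cox6b1 chr7:30626115-30626364, that of Cox7b2 chr5:71548206-71548455, that of Cox6a1 chr5:115348959-115349208, that of Atp5h chr11:115419920-115420169 and that of Sdhd chr9:50603850-50604099, each on the minus strand. The Cox6b2 and Cox7b2 windows held neither motif, Cox6b1 held the ETS motif, and the other 3 held both. The nuclear respiratory factor 1 motif was in 12 of the 71 member promoters (16.9%) and in 3.74% of all 32851 promoters in the table. The ETS motif was also in 12 (16.9%), against 6.91% of all, and 3 member promoters held both. The motif of YY1 (AAGATGGC) was in 1 member promoter, of Atp5j, and in 1.56% of all. A match describes the letters only.

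In complex V, the ATP synthase, all 17 genes were tested, with a median difference of -0.0294 and a median size of 0.0409, and all 17 intervals lay within 0.5 log2 units of zero. Median levels were 14.21 and 14.18 with WIN 18,446 and 14.24 and 14.17 with vehicle. The 5 subunits of the catalytic F1 head lay between -0.15 for Atp5e, the epsilon subunit, and 0.0648 for Atp5c1, the gamma subunit. The beta subunit Atp5b, which holds the catalytic sites, read 14.21 and 14.17 with WIN 18,446 and 14.24 and 14.17 with vehicle. The alpha subunit Atp5a1 differed by -0.0409 in its brightest probe set and by 0.12 in its dimmest. The 3 genes of the membrane c-ring, Atp5g1, Atp5g2 and Atp5g3, which encode the same mature protein, differed by -0.0916, -0.0294 and -0.0433. The 4 subunits of the peripheral stalk lay between -0.11 for Atp5j and 0.15 for Atp5o (adjusted p = 0.264 in limma for Atp5o, whose dimmer probe set was at -0.0002). Among 5 small membrane subunits Atp5l was lowest, at 12.76 and 13.06 with WIN 18,446 and 13.14 and 13.05 with vehicle, where the low array was WIN 18,446 array 1. Atp5h, the stalk subunit with both motifs in its promoter, differed by -0.0193 in its brighter probe set and by -0.22 in its dimmer one.

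Probe sets of the same gene did not always read alike. Of 42 genes with at least 2 tested probe sets, 21 had differences of both signs, and in 0 of them were both signs reached by more than 0.3. The dimmest probe set was lower than the brightest in 27 of the 42, with median differences of -0.0567 for the dimmest and -0.0173 for the brightest. In 26 of the 42 the dimmest had the difference of larger size, so gene values read from the brightest probe set were often the smaller ones. Uqcr10 differed by -0.49 in its dimmest and -0.0285 in its brightest probe set, Ndufb8 by -0.37 and 0.0175, and Ndufs4 by 0.56 and -0.0446.

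Genes that build and supply the complexes were read beside all 10970 tested genes, of which 6.4% were called. Of 40 tested assembly factors 1 was called: Uqcc3, an assembly factor of complex III, fell to 10.90 and 10.98 with WIN 18,446, against 11.60 and 11.46 with vehicle (difference -0.59, SE 0.10, limma adjusted p = 0.0424). That call was lost whichever 1 of the 4 arrays was left out (adjusted p from 0.054 to 0.347 in limma). Among factors that assemble complex I, Tmem126b differed by -0.72, Ndufaf3 by -0.57 and Timmdc1 by 0.58, none of them called (limma adjusted p = 0.0863, 0.138 and 0.139). Of 8 tested carriers and further subunits 0 were called. Cycs, the somatic cytochrome c, read 13.72 and 14.12 with WIN 18,446 and 14.36 and 14.38 with vehicle (difference -0.45, limma adjusted p = 0.133), and the testis form Cyct differed by 0.21. Of 21 genes of pyruvate oxidation and the tricarboxylic acid cycle 0 were called. Mdh2, malate dehydrogenase, differed by 0.24, Pdk1, a kinase that switches off pyruvate dehydrogenase, by 0.37, and Mpc1, a subunit of the mitochondrial pyruvate carrier, by -0.65 (limma adjusted p = 0.107, 0.129 and 0.209). Of 16 tested genes of mitochondrial biogenesis and mitochondrial DNA upkeep 0 were called and 11 were above zero, beside 4957 of all 10970 tested genes above zero. Tfb1m, a mitochondrial ribosomal RNA methyltransferase, Gabpb1, a subunit of the ETS factor GABP, and Ssbp1, which coats single-stranded mitochondrial DNA, differed by 0.41, 0.31 and 0.15 (limma adjusted p = 0.184, 0.255 and 0.255). Nrf1, which encodes nuclear respiratory factor 1, read 8.15 and 8.06 with WIN 18,446 and 8.09 and 8.11 with vehicle.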

How the data were processed

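Total RNA of 2 cultured testis samples with WIN 18,446 and 2 with vehicle was measured on Affymetrix arrays. The deposited table holds log2 levels, normalized between arrays by the authors. RMA and GCRMA are named in the submitters' processing notes without roles or versions, and the log2 scale was read from the values. Symbols were taken from the array's GEO annotation, where 34945 probe sets have 1 symbol, 932 several and 9160 none. All 81 member genes were found by gene ID in RefSeq's table (GRCm38.p6), and 0 symbols changed. After leaving out 64 control probe sets, the 20895 with a mean of at least 5 were fitted with limma 3.58.1 in R 4.3.3 (lmFit, eBayes with a variance trend, two-sided, Benjamini-Hochberg over all tested). Intervals are limma's 95% intervals per probe set, with 5.19 degrees of freedom and no adjustment for number. An exact permutation test cannot go below 0.333 here, so none was run. The number of arrays limits the precision.

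The members, lists and thresholds were chosen with earlier results of these data known, and the 0.5 limit after the values were seen. Genes named are those with isoforms, the 3 with the largest differences and the 3 of highest level per complex, and, of the other lists, those called and up to 3 more with the smallest p. Further members are given as examples of their role group. Cyct, Nrf1, Ucp1 and Dppa3 were named outside this rule. The limma fit was checked on simulated data with known changes. That check required recovery of large changes only, so it does not show how well small ones would be called. Same-numbered samples did not deviate together (r = 0.014 over tested probe sets), so the replicate number is used only as an alternative. Motifs were counted in Python 3.11.15.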

Additional observations from a re-analysis of the deposited data

How the results depend on the processing

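Limits: 2 arrays a group leave 2 residual degrees of freedom, and bright probe sets differed less than dim ones. Over all tested probe sets the median size of the difference was 0.302 at levels from 5 to 9 and 0.0594 from 14 to 16. Whether bright probe sets were measured more closely was not tested. The number of all tested probe sets called was 1083, and it was 3 with no level filter (5250 at an unadjusted p under 0.05), 372 with no variance trend, 2216 at an adjusted p under 0.10, and from 0 to 1398 when 1 array was left out. The count of 0 came with either vehicle array left out, with 2455 (array 1) and 2820 (array 2) at an unadjusted p below 0.05. The number of member probe sets called was 0, and it was 1 (Cox6b2) with a mean of at least 7, with quantile normalization again, with array medians set equal and with the replicate number as a block, 2 at an adjusted p under 0.10 (1 higher and 1 lower), and from 0 to 8 when 1 array was left out. Of all probe sets tested under each setting, 1263 were called with a mean of at least 7 and 1321 with quantile normalization again. With array medians set equal 1242 were called, and 1467 under the replicate block. Cox6b2 had a limma adjusted p of 0.0148 under the replicate block, 0.0408 with a mean of at least 7, 0.0492 with quantile normalization again, and 0.0389 with array medians set equal. Setting array medians equal gave a median difference of -0.067 over the member genes and -0.0832 for complex I, since it moves every difference by the same -0.0386. When 1 array was left out, the median ran from -0.0655 to 0.0082 over all member genes, from -0.0821 to 0.0004 for complex I, from -0.0937 to 0.0164 for complex III, from -0.1251 to -0.06 for complex II, from -0.0035 to 0.0622 for complex IV and from -0.0465 to 0.0082 for complex V. Ndufa4 ran from -0.2205 to 0.0188 and Sdhb from -0.1507 to 0.0647, both positive without WIN 18,446 array 1 and negative with all arrays. Uqcc3 was not called with no level filter (adjusted p = 0.123) or with no variance trend (0.0855). The causes were not tested. The number of member intervals within 0.5 log2 units ran from 93 without vehicle array 2 to 136 with no level filter, where 164 probe sets were fitted. Counting Ndufa4 and Ndufa4l2 with complex IV and counting intervals were alternatives chosen after seeing the data.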

Other observations

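On the array 9 probe sets list several symbols of which at least 1 fits the naming rule, so no gene is named from them. Of these 6 were tested, and all 6 differences were below zero, from -0.60 to -0.0385. Of all 20895 tested probe sets 11173 were below zero. Limma called 1 of the 6 lower (adjusted p = 0.0254), beside 2.91% of all tested. None of the 6 is counted among the members, so the count of 0 called members depends on the single-symbol rule.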
